A study of Arabidopsis thaliana with 24 samples.

Results

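The phosphate starvation response genes were 42 loci chosen by a list of locus identifiers: the *MIR399* precursors, the target mimics *IPS1* and *AT4*, the *SPX* sensors, *PHO2*, phosphate transporters, the regulators *PHR1* and *PHL1*, secreted phosphatases and nucleases, enzymes of membrane lipid remodelling and genes of the root growth response. Of these, 40 had a row among the 33681 genes quantified and 36 passed the filter on low values, 10 or more normalized counts in 3 libraries or more. *MIR399A* and *MIR399B* had no row and were not analysed here, and *MIR399E*, *MIR399F*, *PHT1;3* and *NPC5* were under the filter. The samples were whole 14-day-old Arabidopsis thaliana seedlings of the Col-0 background, grown in short days on one medium of mineral salts with sucrose, so that the phosphate supply was not varied. Total RNA was sequenced from 8 genotypes with 3 libraries each: *brm-1 bcl7a bcl7b*, *brm-1*, *brm-3 bcl7a bcl7b*, *brm-3*, *bcl7a bcl7b*, *bcl7b*, *bcl7a* and WT. All mutant alleles were T-DNA insertions carried in the whole plant. *brm-1* is a null and *brm-3* a weaker allele of *BRM*, the ATPase of a SWI/SNF chromatin remodelling complex. *BCL7A* and *BCL7B* encode accessory subunits of that complex and, per the study, also of the SWI/SNF complexes built on the other ATPases, SYD and MINU.

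Plants short of phosphate switch on a program that takes up more phosphate, releases it from organic matter and replaces phospholipids in membranes with galactolipids and sulfolipids. The transcription factors PHR1 and PHL1 drive it by binding a short promoter motif, and SPX proteins that sense inositol pyrophosphates hold them back when phosphate is plentiful. One branch acts through a small RNA: miR399 directs cleavage of the transcript of *PHO2*, an enzyme of ubiquitin conjugation that promotes removal of phosphate transporters, and the noncoding RNAs *IPS1* and *AT4* bind miR399 without being cleaved. Many of these genes are known mainly from roots and root hairs.

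The small RNA and its binding sites are given because 3 members, *PHO2*, *IPS1* and *AT4*, carry the complement of the seed of 2 others, *MIR399C* and *MIR399D*. The RefSeq annotation of the genome build TAIR10.1 gave a mature miR399 for each of the 6 *MIR399* loci on chromosomes 1, 2 and 5, and all 6 had the seed GCCAAAG at bases 2 to 8, in capitals.
miR399c, shared by miR399b, chr5:24962568-24962588, plus strand: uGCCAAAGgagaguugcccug
miR399d, chr2:14442988-14443008, minus strand: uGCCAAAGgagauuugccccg
miR399f, chr2:14445084-14445104, plus strand: uGCCAAAGgagauuugcccgg
The capitals in the next sequences, read from the same build, mark the bases that pair with that seed. *PHO2* held 5 such sites of 21 bases, of which the closest to the complement of miR399d is shown. All 5 lay in an exon upstream of the coding sequence. *IPS1* and *AT4* held 1 site each of 24 bases, with 3 extra bases between the positions opposite bases 10 and 11 of the miRNA. For both, the annotation lists a short reading frame that lies over the site or before it.
PHO2 site, chr2:14281884-14281904, minus strand: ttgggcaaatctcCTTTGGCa
IPS1 site, chr3:3051224-3051247, plus strand: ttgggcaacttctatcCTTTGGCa
AT4 site, chr5:895149-895172, plus strand: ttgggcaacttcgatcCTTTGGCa
The libraries measured the precursor transcripts of the *MIR399* loci, not the mature miRNA.

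The values were normalized counts, gene-level read estimates divided by a size factor for each library. They summed to 29.9 to 40.9 M in the 9 *bcl7b*, *bcl7a* and WT libraries and to 16.6 to 22.1 M in the other 15. Low values gathered at multiples of a step that differed between libraries, which put the depth at roughly 19.6 to 28.2 M fragments a library. The lower sum went with the genotype in every comparison of *bcl7a bcl7b* or a *brm* mutant with WT, and both cannot be told apart there. Comparisons among the 15 libraries do not cross that line. Replicates 1 and 3 of *bcl7a bcl7b* differed by less than counting noise and were counted as 1 sample, leaving 2 for that genotype. WT replicate 1 had 16191 genes at 0, against 11114 to 13506 in the other 23 libraries. As a check of the labels, *BCL7B* was listed at 0 in all 3 libraries of *brm-1 bcl7a bcl7b*, *bcl7a bcl7b* and *bcl7b*, at 0, 0 and 24 in *brm-3 bcl7a bcl7b* and at 382, 383 and 479 in WT. *BCL7A* had 5.05, 3.82 and 0 in *brm-1 bcl7a bcl7b* and 0 in all 3 libraries of *brm-3 bcl7a bcl7b*. Both lay below their own backgrounds, at 107, 85.9 and 90.1 in *brm-1* and 71.3, 91.6 and 53 in *brm-3*. In *bcl7a bcl7b* it had 3.01, 12.4 and 3.11 and in *bcl7a* 4.42, 0 and 0. WT had 0, 18.1 and 30.1, too low for a check against WT. *BRM* had 17.9, 26.6 and 43.6 in *brm-1 bcl7a bcl7b*, 35.2, 44.8 and 31.2 in *brm-1* and 111, 179.9 and 349.5 in WT. All 6 root hair and 5 endodermis markers and all 6 green leaf markers of the lists used were detected, as whole seedlings should give. The 11 root markers summed to 632 to 1289.7 in *brm-1 bcl7a bcl7b*, 948 to 1089 in *brm-1*, 699.9 to 1309 in *brm-3 bcl7a bcl7b*, 549 to 1083 in *brm-3*, 1262 to 1467 in *bcl7a bcl7b* and 2026 to 2501 in WT. Per M of the library's sum they were 37.4 to 58.4, 42.9 to 58.3, 35.8 to 79, 28.9 to 54.9, 64 to 79.5 and 49.5 to 69.7 in the same order, and on that scale the range of each of these 5 mutants overlapped that of WT. That overlap is for the 11 markers pooled. The endodermis markers alone are given further below, and several of them were lower than in WT. Fewer root cells and less RNA per root cell cannot be told apart in whole seedlings.

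Most members that differed between genotypes were high in *brm-1 bcl7a bcl7b*, *brm-1* and *brm-3 bcl7a bcl7b*, and the comparisons asked how loss of BRM, of BCL7A and BCL7B, or of all of them changed the program. A gene was called when its adjusted p was under 0.05 and its log2 fold change passed 0.6 in a limma fit of log2(normalized count + 1) over all 21596 genes that passed the filter. Folds, given in log2 units with their standard error (SE), are on that scale, which understates the change of low genes. Counts with WT or *brm-1* libraries leave out *MIR399D* and *PEPC1*, which were known from *brm-1* against WT when the members were listed, and so cover 34 of the 36 members that passed the filter. In *brm-1 bcl7a bcl7b*, 23 of these 34 rose and 4 fell against WT, where 26.9% and 18.3% of all genes tested did. In *brm-3 bcl7a bcl7b*, 21 rose and 4 fell, against 30.8% and 22.8% of all genes. In *brm-3*, 8 rose and 6 fell, and the background was 23.5% and 16.5%, so that its members were called about as often as any gene. The members that fell were *SPX4*, *PHT1;1*, *PHO1* and *LPR2* in *brm-1 bcl7a bcl7b* and *PHO2*, *PHT1;1*, *PHO1* and *LPR2* in *brm-3 bcl7a bcl7b*. In *bcl7a bcl7b* the counts were 6 and 3, with a fall of *PHT1;1*, *PHT1;4* and *GDPD1*, beside 11.9% and 10.2% of all genes. No member was called in *bcl7b* or *bcl7a* by limma, where 1.5% and 0.301% of all genes were called higher and 0.57% and 0.0509% lower. An unadjusted p under 0.05 was found for 7 members in *bcl7b* and 2 in *bcl7a*, and the share of all genes under it was not counted. The median log2 fold change of the 34 members was 1.75 in *brm-1 bcl7a bcl7b*, 1.41 in *brm-3 bcl7a bcl7b*, 0.32 in *brm-3* and 0.50 in *bcl7a bcl7b*, while the median of all genes was 0.29, 0.30, 0.27 and 0.19 in the same order. The fall was lost for *GDPD1* in *bcl7a bcl7b* against WT when WT replicate 3 was left out (adjusted p = 0.0867). Of the rises there, *SPX2* and *RNS1* were lost without WT replicate 1 or 3, *PHL1* without WT replicate 2 or 3, and *PDR2* without WT replicate 1 (adjusted p 0.0529 to 0.13). Leaving out *bcl7a bcl7b* replicate 2 left 1 sample of that genotype, and the *SPX2* rise of 1.09 was then 0.52.

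These comparisons with WT share the WT libraries. The comparison of *brm-1* with WT bore on the choice of members. Its counts use the same thresholds but only describe the members and are no test of the list. There 22 members were called higher and 3 lower, with 28.9% and 19.2% of all genes, and the lower ones were *SPX4*, *PHT1;1* and *LPR2*. Neither *MIR399D* nor *PEPC1* is tested against WT or with *brm-1* libraries, and other comparisons with *brm-1* libraries are not independent of that choice. When every library was instead rescaled to the same total, the median of all genes stood higher against WT, at 1.17 in *brm-1 bcl7a bcl7b*, 1.26 in *brm-3 bcl7a bcl7b*, 1.12 in *brm-3* and 1.12 in *bcl7a bcl7b*. The members called were then 27 higher and 0 lower, 27 and 1, 16 and 3, and 19 and 1, and the calls over all genes were 11745 higher and 1491 lower, 12092 and 1985, 10933 and 892, and 10869 and 364, in the same order. Without WT replicate 1, 18 members rose and 4 fell in *brm-1 bcl7a bcl7b*, 20 rose and 5 fell in *brm-3 bcl7a bcl7b*, 8 rose and 6 fell in *brm-3*, and 3 rose and 3 fell in *bcl7a bcl7b*. The shares of all genes in that fit are not given here.

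**Figure D1:**
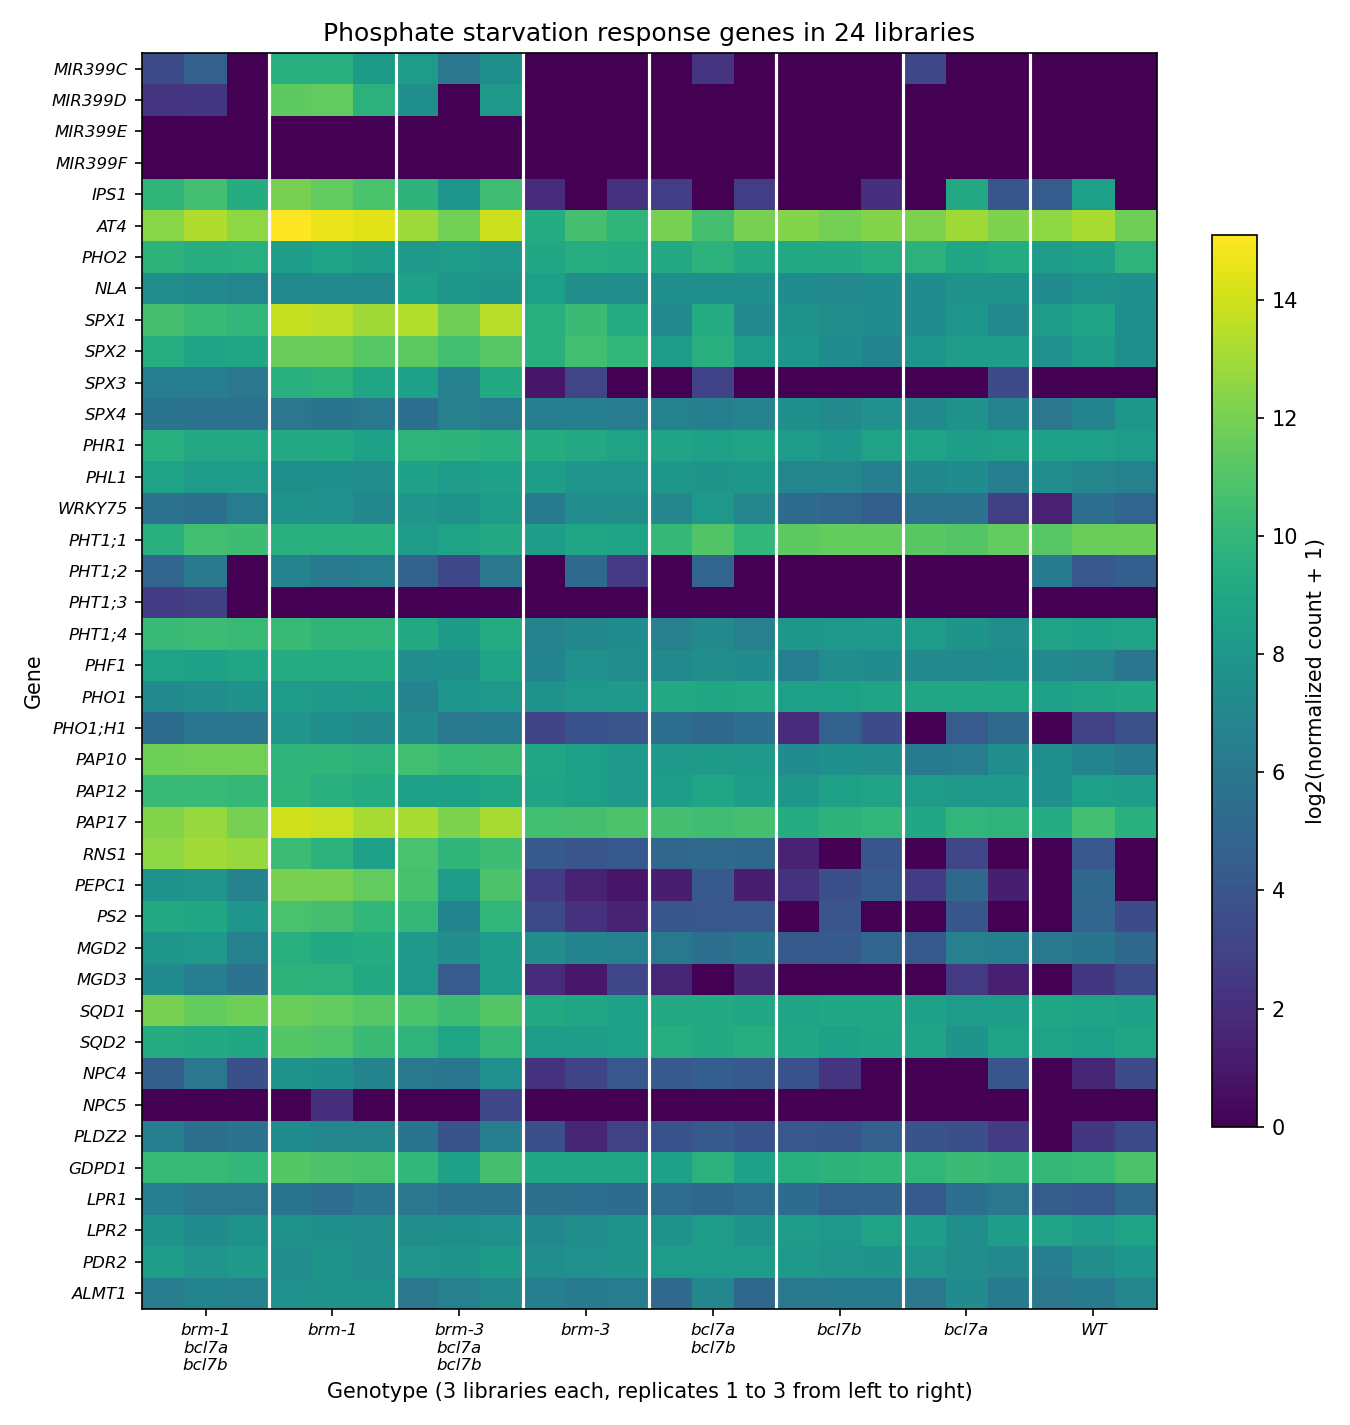
Level of the 40 members that had a row, as log2(normalized count + 1), in each of the 24 libraries, with genes in rows grouped by role and libraries in columns grouped by genotype. *SPX3*, *PEPC1* and *MGD3* are brighter in *brm-1* and *brm-3 bcl7a bcl7b* than in *brm-3* and WT, *RNS1* is brightest in *brm-1 bcl7a bcl7b*, and *MIR399E* and *MIR399F* are at 0 throughout.

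The *MIR399* precursors were high in *brm-1* and *brm-3 bcl7a bcl7b* and at or near 0 in the other genotypes. *MIR399C* (AT5G62162, chr5:24962485-24962598), a precursor of miR399, had 9.92, 24.1 and 0 in *brm-1 bcl7a bcl7b*, 734, 706 and 296 in *brm-1*, 328, 61.3 and 181 in *brm-3 bcl7a bcl7b*, with 0 in all 3 libraries of *brm-3*. It was also at 0 in all 3 libraries of WT and *bcl7b*, with 0, 4.06 and 0 in *bcl7a bcl7b* and 8.28, 0 and 0 in *bcl7a*. All 3 *brm-3 bcl7a bcl7b* libraries therefore lay above all *brm-3* libraries (adjusted p = 2.86e-05), and all 3 *brm-1 bcl7a bcl7b* libraries lay below all *brm-1* libraries, where *MIR399C* fell by 6.37 log2 units (SE 1.05, adjusted p = 6.84e-05). No fold is given against a genotype at 0. *MIR399D* (AT2G34202, chr2:14442978-14443077), the second precursor detected, had 3.96, 4.51 and 0 in *brm-1 bcl7a bcl7b*, 2637, 2853 and 818 in *brm-1* and 180.5, 0 and 280.1 in *brm-3 bcl7a bcl7b* and was at 0 in all 15 libraries of the other 5 genotypes. Replicate 2 of *brm-3 bcl7a bcl7b* was among the libraries at 0, and the difference between *brm-3 bcl7a bcl7b* and *brm-3* had an adjusted p = 0.00654. *MIR399E* and *MIR399F* were listed at 0 in all 24 libraries. The call was lost for *MIR399D* in *brm-3 bcl7a bcl7b* against *brm-3* when any one of *brm-3 bcl7a bcl7b* replicate 1 or *brm-3 bcl7a bcl7b* replicate 3 was left out (adjusted p 0.0532 to 0.0607).

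The noncoding mimics followed the precursors in part. *IPS1* (AT3G09922, chr3:3050989-3051530) had 956, 1546 and 659 in *brm-1 bcl7a bcl7b*, 4166, 2866 and 1803 in *brm-1*, 862, 246 and 1432 in *brm-3 bcl7a bcl7b*, with 2.74, 0 and 3.56 in *brm-3*. In the remaining genotypes *IPS1* had 5.73, 0 and 5.92 in *bcl7a bcl7b*, 0, 0 and 3.20 in *bcl7b*, 0, 559 and 15.2 in *bcl7a* and 19.9, 359 and 0 in WT. Every library of *brm-1 bcl7a bcl7b*, *brm-1* and *brm-3 bcl7a bcl7b* was above every *brm-3* and *bcl7a bcl7b* library, whereas single libraries of *bcl7a* and WT reached into their range. *IPS1* rose by 8.03 log2 units (SE 1.69, adjusted p = 0.00136) in *brm-3 bcl7a bcl7b* against *brm-3*. *IPS1* rose by 8.57 log2 units (SE 1.89, adjusted p = 0.00178) in *brm-1 bcl7a bcl7b* against *bcl7a bcl7b*. *AT4* (AT5G03545, chr5:894582-895517), the other mimic, had 5445, 10071 and 5966 in *brm-1 bcl7a bcl7b*, 34939, 26061 and 21401 in *brm-1*, 7552, 3755 and 15865 in *brm-3 bcl7a bcl7b*, with 649.7, 1601 and 933 in *brm-3*. Its other values were 4069, 1568 and 4014 in *bcl7a bcl7b*, 4999.8, 3854 and 4919 in *bcl7b*, 4416, 7912 and 4599 in *bcl7a* and 6007, 9279 and 3551 in WT. Unlike *IPS1*, *AT4* was expressed in every genotype, and *brm-3* stood lowest, below all WT libraries: it fell by 2.56 log2 units (SE 0.44, adjusted p = 7.64e-05) in *brm-3* against WT. It rose by 2.95 log2 units (SE 0.44, adjusted p = 4.21e-05) in *brm-3 bcl7a bcl7b* against *brm-3*, and its libraries overlapped those of WT. *AT4* fell by 1.97 log2 units (SE 0.44, adjusted p = 0.0015) in *brm-1 bcl7a bcl7b* against *brm-1*.

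*PHO2* (AT2G33770, chr2:14277558-14283113), the target of miR399, spanned a narrow range and moved the other way. It had 877, 684 and 736 in *brm-1 bcl7a bcl7b*, 349, 426 and 338 in *brm-1*, 273, 306 and 263 in *brm-3 bcl7a bcl7b*, with 498, 668 and 648 in *brm-3*. *PHO2* was at 553, 832 and 549.9 in *bcl7a bcl7b*, 582, 543 and 672 in *bcl7b*, 824, 469.7 and 612 in *bcl7a* and 306, 402 and 902 in WT. The 2 genotypes with the highest *MIR399C*, *brm-1* and *brm-3 bcl7a bcl7b*, had the lowest means of *PHO2*. *PHO2* fell by 1.10 log2 units (SE 0.28, adjusted p = 0.00666) in *brm-3 bcl7a bcl7b* against *brm-3*. *PHO2* rose by 1.04 log2 units (SE 0.28, adjusted p = 0.00658) in *brm-1 bcl7a bcl7b* against *brm-1*, without overlap of the libraries in either pair. Against WT it fell by 0.78 log2 units (adjusted p = 0.0231) in *brm-3 bcl7a bcl7b*, but after rescaling of the libraries the sign turned to 0.24 (adjusted p = 0.490). *NLA* (AT1G02860), a ubiquitin ligase that acts on phosphate transporters, was not called against WT in any of the 6 mutants tested. A call was lost for *PHO2* in *brm-3 bcl7a bcl7b* against WT when any one of WT replicate 3, *brm-3 bcl7a bcl7b* replicate 1 or *brm-3 bcl7a bcl7b* replicate 3 was left out (adjusted p 0.0554 to 0.256).

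**Figure D2:**
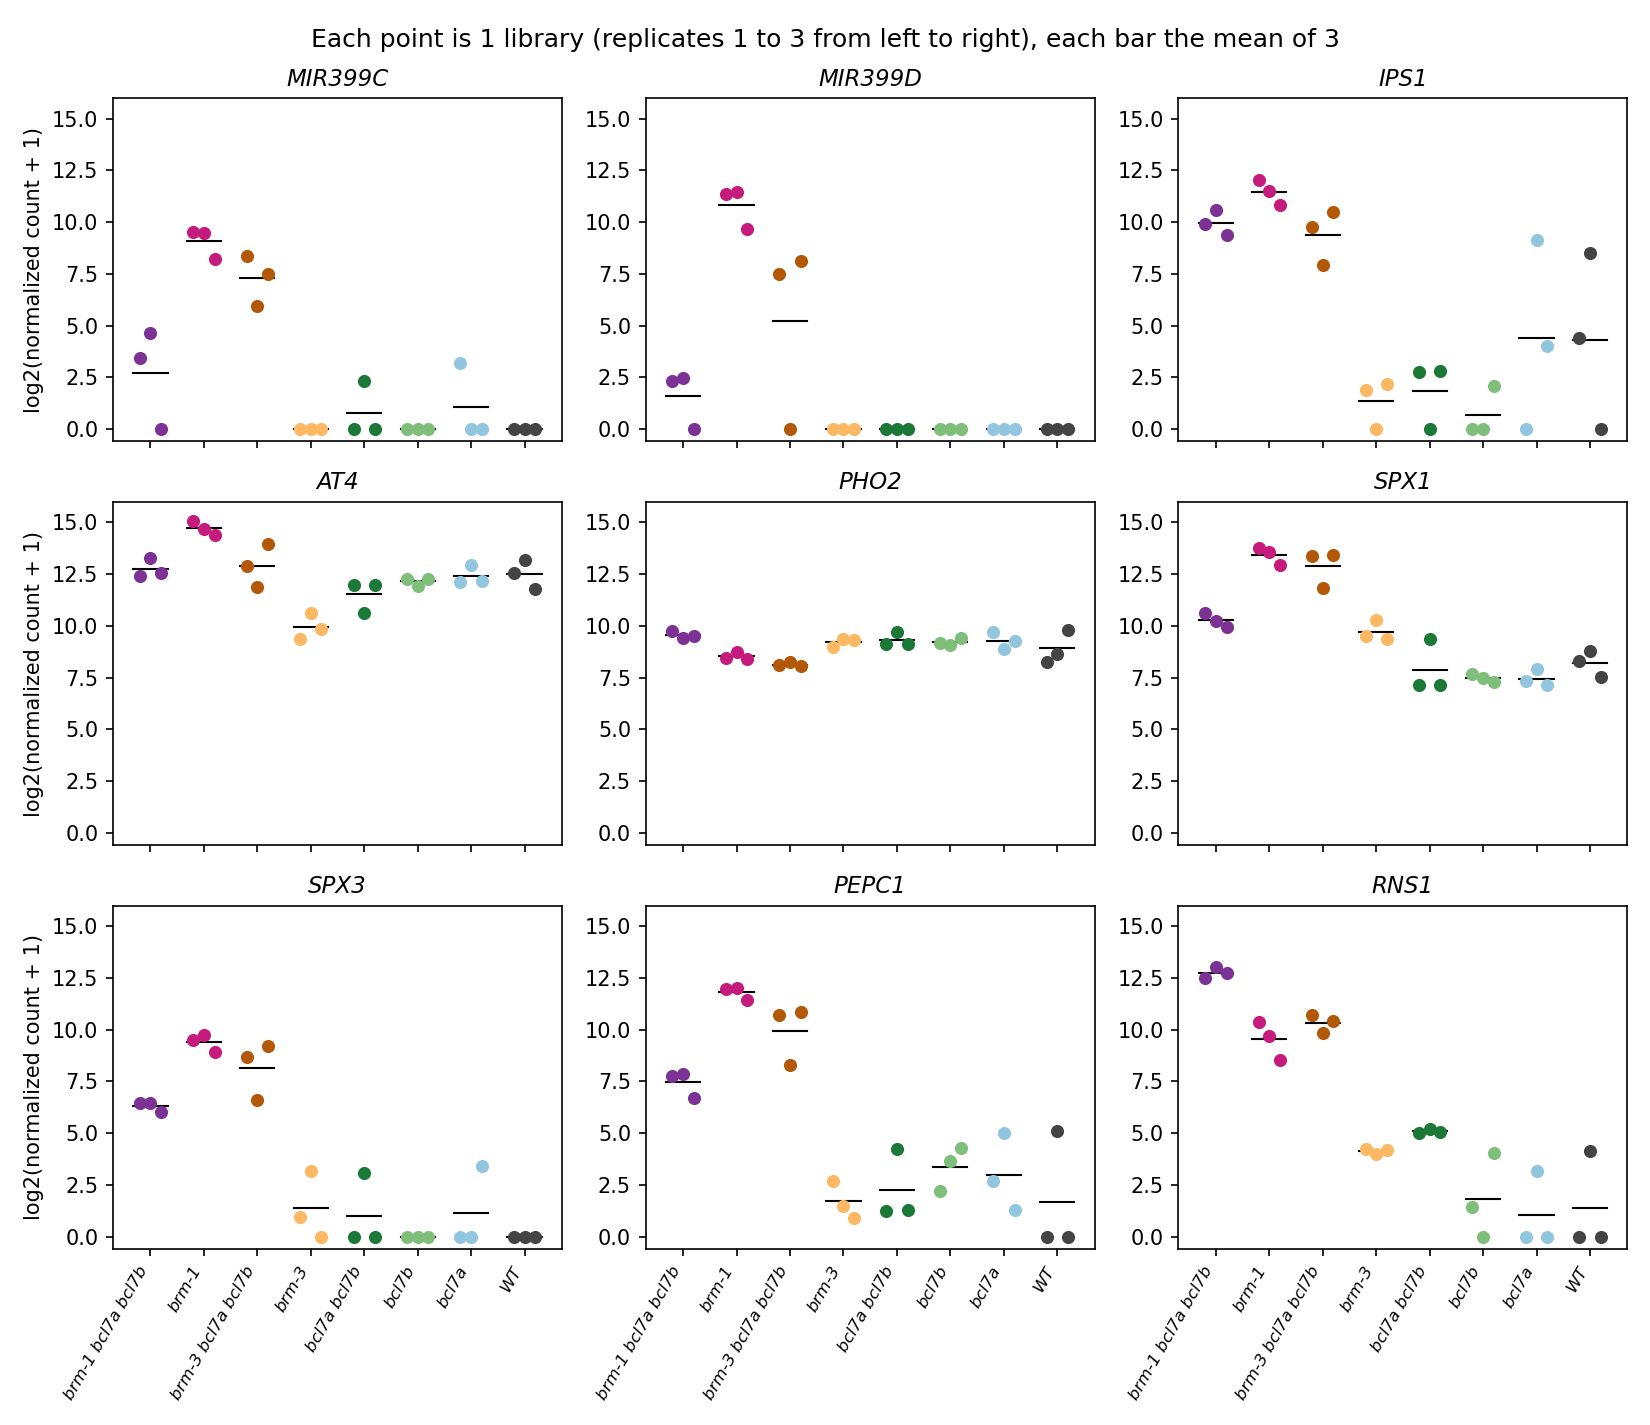
Values of 9 members in every library, as log2(normalized count + 1), by genotype from *brm-1 bcl7a bcl7b* on the left to WT on the right. Each point is a library and each bar the mean of 3, with replicates 1 and 3 of *bcl7a bcl7b* near-identical. In most panels *brm-1* and *brm-3 bcl7a bcl7b* are high and *brm-3* is low, *PHO2* spans a narrow range, and *RNS1* is highest in *brm-1 bcl7a bcl7b*.

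Of the *SPX* genes, *SPX1*, *SPX2* and *SPX3*, sensors that restrain PHR1, behaved alike and *SPX4* did not. *SPX1* (AT5G20150, chr5:6802282-6803655) had 1591, 1222 and 988 in *brm-1 bcl7a bcl7b*, 14059, 12381 and 7908 in *brm-1*, 10665, 3681 and 11182 in *brm-3 bcl7a bcl7b*, with 719, 1248 and 659.5 in *brm-3*. *SPX1* was at 142, 656 and 141 in *bcl7a bcl7b*, 202, 176 and 153 in *bcl7b*, 158, 244 and 138 in *bcl7a* and 315, 440.5 and 184 in WT. It rose by 3.18 log2 units (SE 0.45, adjusted p = 2.31e-05) in *brm-3 bcl7a bcl7b* against *brm-3*. *SPX1* fell by 3.16 log2 units (SE 0.45, adjusted p = 1.27e-05) in *brm-1 bcl7a bcl7b* against *brm-1*. The libraries did not overlap in either pair, and *SPX1* in *brm-1 bcl7a bcl7b* still lay above WT, by 2.07 (adjusted p = 0.000646). *SPX2* (AT2G26660, chr2:11338752-11340950) had 681, 450.2 and 461 in *brm-1 bcl7a bcl7b*, 3229, 3295 and 2325 in *brm-1*, 2472, 1494 and 2297 in *brm-3 bcl7a bcl7b*, with 729, 1447 and 1023 in *brm-3*. *SPX2* was at 328, 714 and 326 in *bcl7a bcl7b*, 243, 162 and 109 in *bcl7b*, 247, 322 and 332 in *bcl7a* and 195, 336 and 179.9 in WT. The *brm-3* libraries were already above WT, by 2.17 (adjusted p = 1.48e-05) for *SPX2* and 1.51 (adjusted p = 0.0102) for *SPX1*, and the further difference of *brm-3 bcl7a bcl7b* from *brm-3* in *SPX2*, 0.99 (adjusted p = 0.031), was the smallest of the 3. *SPX3* (AT2G45130, chr2:18606410-18607853) had 86.6, 86.9 and 63.6 in *brm-1 bcl7a bcl7b*, 729.9, 856 and 479 in *brm-1*, 404, 96.6 and 587 in *brm-3 bcl7a bcl7b*, with 0.9, 7.96 and 0 in *brm-3*, 0, 7.33 and 0 in *bcl7a bcl7b*, 0, 0 and 9.80 in *bcl7a*, and was at 0 in all 3 libraries of *bcl7b* and WT. It rose by 6.79 log2 units (SE 0.97, adjusted p = 2.38e-05) in *brm-3 bcl7a bcl7b* against *brm-3*. *SPX3* rose by 4.78 log2 units (SE 1.08, adjusted p = 0.00217) in *brm-1 bcl7a bcl7b* against *bcl7a bcl7b*. In *brm-1 bcl7a bcl7b* against *brm-1*, *SPX2* fell by 2.48 log2 units (adjusted p = 4.61e-06) and *SPX3* fell by 3.08 log2 units (adjusted p = 0.0178). *SPX4* (AT5G15330) had 55, 51.4 and 48.9 in *brm-1 bcl7a bcl7b*, 62.2, 54.2 and 65.1 in *brm-1*, 45.4, 92.5 and 83.9 in *brm-3 bcl7a bcl7b*, with 87.3, 92.1 and 81.8 in *brm-3*. *SPX4* was at 98.6, 88.7 and 102 in *bcl7a bcl7b*, 186, 144 and 201 in *bcl7b*, 148, 203 and 105 in *bcl7a* and 61.5, 109 and 258 in WT. It fell by 1.20 log2 units (SE 0.41, adjusted p = 0.019) in *brm-1 bcl7a bcl7b* against WT, which after rescaling was lost, and was called higher in none of the 6 mutants tested against WT. Calls were lost for *SPX1* in *brm-3* against WT when any one of WT replicate 3 or *brm-3* replicate 2 was left out (adjusted p 0.0626 to 0.0629), *SPX2* in *brm-3 bcl7a bcl7b* against *brm-3* when any one of *brm-3* replicate 1, *brm-3* replicate 3, *brm-3 bcl7a bcl7b* replicate 1 or *brm-3 bcl7a bcl7b* replicate 3 was left out (adjusted p 0.0785 to 0.16), *SPX3* in *brm-1 bcl7a bcl7b* against *brm-1* when any one of *brm-1* replicate 1, *brm-1* replicate 2 or *brm-1 bcl7a bcl7b* replicate 3 was left out (adjusted p 0.0552 to 0.0665), and *SPX4* in *brm-1 bcl7a bcl7b* against WT when any one of WT replicate 3 or *brm-1 bcl7a bcl7b* replicate 3 was left out (adjusted p 0.0509 to 0.17).

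The transcription factors that drive the pathway rose by smaller folds than *SPX1* in both triple mutants. *PHR1* (AT4G28610), the master regulator, had 737, 550.4 and 559 in *brm-1 bcl7a bcl7b*, 559.9, 606 and 392 in *brm-1*, 889, 858 and 721 in *brm-3 bcl7a bcl7b*, with 644, 548 and 413 in *brm-3*. *PHR1* was at 451, 402 and 449 in *bcl7a bcl7b*, 318, 243 and 406 in *bcl7b*, 410.2, 354 and 376 in *bcl7a* and 405, 363 and 313 in WT. It rose by 1.19 log2 units (SE 0.21, adjusted p = 6.55e-05) in *brm-3 bcl7a bcl7b* against WT. *PHR1* rose by 0.77 log2 units (SE 0.21, adjusted p = 0.00534) in *brm-1 bcl7a bcl7b* against WT, while the *brm-1* libraries had values on both sides of the highest WT value. *PHL1* (AT5G29000), its close relative, had 437, 327 and 325 in *brm-1 bcl7a bcl7b*, 181, 192 and 177 in *brm-1*, 398, 316 and 399.5 in *brm-3 bcl7a bcl7b*, with 351, 233 and 232 in *brm-3*. *PHL1* was at 250, 219.8 and 250 in *bcl7a bcl7b*, 122, 125 and 88.3 in *bcl7b*, 131, 162 and 90.1 in *bcl7a* and 165, 117 and 97.1 in WT. Both triple mutants lay above all WT libraries, by 1.58 (adjusted p = 2.82e-05) in *brm-3 bcl7a bcl7b* and 1.54 (adjusted p = 5.17e-05) in *brm-1 bcl7a bcl7b*. *WRKY75* (AT5G13080), a transcription factor induced by low phosphate, had 48, 46.3 and 84.9 in *brm-1 bcl7a bcl7b*, 202, 202 and 132 in *brm-1*, 231, 206 and 314 in *brm-3 bcl7a bcl7b*, with 74.4, 167 and 173 in *brm-3*. *WRKY75* was at 125, 262 and 126 in *bcl7a bcl7b*, 37.2, 30.5 and 23.1 in *bcl7b*, 50.2, 49.2 and 6.15 in *bcl7a* and 1.62, 42.7 and 29.9 in WT. In contrast to the *SPX* genes its *bcl7a bcl7b* and *brm-3* libraries overlapped those of *brm-1*. It rose by 3.10 log2 units (SE 0.78, adjusted p = 0.00302) in *brm-3* against WT. *WRKY75* rose by 3.58 log2 units (SE 0.88, adjusted p = 0.00523) in *bcl7a bcl7b* against WT. *PHR1*, *PAP10*, *PAP17*, *PLDZ2*, *GDPD1*, *NLA* and *LPR1* overlap a gene on the opposite strand, and whether reads were assigned by strand is not given in the sources used here, so their values could hold reads of the other gene. The call did not hold for *WRKY75* in *bcl7a bcl7b* against WT when *bcl7a bcl7b* replicate 2 was left out (adjusted p = 0.0702).

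Among the transporters, *PHO1;H1* was higher and *PHT1;1* and *PHO1* were lower than in WT in both triple mutants, and *PHT1;4* was higher than in WT in *brm-1 bcl7a bcl7b*. After rescaling the fall of *PHO1* was lost, at -0.46 (adjusted p = 0.138) in *brm-1 bcl7a bcl7b* and -0.23 (adjusted p = 0.446) in *brm-3 bcl7a bcl7b*. The fall of *PHT1;1* in *brm-1 bcl7a bcl7b* was lost as well. *PHT1;4* was then also called higher in *brm-3 bcl7a bcl7b*, by 1.21 (adjusted p = 0.000534), but the median of all genes there was 1.26, so it moved no more than the middle of all genes. Values of *PHT1;1*, *PHT1;4*, *PHF1*, *PHO1*, *SQD1*, *SQD2*, *PAP12*, *GDPD1*, *ALMT1*, *LPR1*, *LPR2* and *PDR2* are given although the rule for naming genes did not pick them, and they were chosen after their values were seen. *PHT1;1* (AT5G43350), a main phosphate importer of the root, was lower rather than higher, with 764, 1488 and 1348 in *brm-1 bcl7a bcl7b*, 772, 716 and 776 in *brm-1*, 316, 432 and 551 in *brm-3 bcl7a bcl7b*, with 348, 464 and 429 in *brm-3*. *PHT1;1* was at 1069, 2046 and 1037 in *bcl7a bcl7b*, 2567, 2994 and 2918 in *bcl7b*, 2412, 2152 and 2834 in *bcl7a* and 2286, 3348 and 3266 in WT. It fell by 2.79 log2 units (SE 0.25, adjusted p = 3.95e-09) in *brm-3 bcl7a bcl7b* against WT. *PHT1;1* fell by 2.83 log2 units (SE 0.25, adjusted p = 1.43e-08) in *brm-3* against WT. After rescaling, the fall in *brm-1 bcl7a bcl7b* (-1.34 as deposited) was -0.42 (adjusted p = 0.141), and that in *bcl7a bcl7b* (-0.99) was -0.03 (adjusted p = 0.945). Within the 15 libraries of lower sum, *PHT1;1* fell by 1.83 log2 units (SE 0.28, adjusted p = 0.000256) in *brm-3* against *bcl7a bcl7b*. *PHT1;1* fell by 1.79 log2 units (SE 0.28, adjusted p = 4.76e-05) in *brm-3 bcl7a bcl7b* against *bcl7a bcl7b*. *PHT1;4* (AT2G38940), the other major importer, had 1223, 1301 and 1128 in *brm-1 bcl7a bcl7b*, 1219, 928 and 932 in *brm-1*, 571, 294 and 611 in *brm-3 bcl7a bcl7b*, with 109, 131 and 160.4 in *brm-3*. *PHT1;4* was at 92.9, 146 and 95.2 in *bcl7a bcl7b*, 250, 259.5 and 275 in *bcl7b*, 321, 226 and 177 in *bcl7a* and 414, 397 and 416 in WT. It was below all WT libraries in *brm-3* and *bcl7a bcl7b*, above them in *brm-1 bcl7a bcl7b*, and overlapped them in *brm-3 bcl7a bcl7b*. It rose by 1.82 log2 units (SE 0.26, adjusted p = 1.97e-05) in *brm-3 bcl7a bcl7b* against *brm-3*. *PHT1;4* rose by 3.36 log2 units (SE 0.29, adjusted p = 1.81e-08) in *brm-1 bcl7a bcl7b* against *bcl7a bcl7b*. *PHT1;2* (AT5G43370) had 29.7, 66 and 0 in *brm-1 bcl7a bcl7b*, 108, 67.9 and 83.4 in *brm-1*, 26.4, 8.56 and 61.2 in *brm-3 bcl7a bcl7b*, with 0, 34.6 and 4.75 in *brm-3*, 0, 29.4 and 0 in *bcl7a bcl7b*, 0 in all 3 libraries of *bcl7b* and *bcl7a*, and 74.9, 16.4 and 21.6 in WT, and was called in no comparison. *PHT1;1* and *PHT1;2* share 49.9% and 52.4% of their 31-base stretches with each other or *PHT1;3*, so that reads could be split between them. The sum of the 3 genes gave the same calls as *PHT1;1* against WT in all 6 mutants tested. *PHT1;3* was at 5.29, 6.21 and 0 in *brm-1 bcl7a bcl7b* and at 0 elsewhere. *PHF1* (AT3G52190), which PHT1 proteins need to leave the endoplasmic reticulum, rose by 2.12 log2 units (SE 0.34, adjusted p = 2.15e-05) in *brm-1 bcl7a bcl7b* against WT. *PHF1* rose by 1.25 log2 units (SE 0.34, adjusted p = 0.00341) in *brm-3 bcl7a bcl7b* against WT. *PHO1* (AT3G23430), which loads phosphate into the xylem, was lower: it fell by 1.63 log2 units (SE 0.28, adjusted p = 0.000168) in *brm-1 bcl7a bcl7b* against *bcl7a bcl7b*. In *brm-3 bcl7a bcl7b* it fell by 1.5 log2 units against *bcl7a bcl7b* (adjusted p = 0.00032). Against WT it fell by 0.87 log2 units (adjusted p = 0.00804) in *brm-3*, and its sign turned to 0.024 (adjusted p = 0.950) after rescaling. Its homologue *PHO1;H1* (AT1G68740) had 39.4, 58.9 and 59.2 in *brm-1 bcl7a bcl7b*, 238, 179.8 and 136 in *brm-1*, 148, 64.6 and 72.5 in *brm-3 bcl7a bcl7b*, with 7.46, 13.1 and 14.9 in *brm-3*. *PHO1;H1* was at 44, 33.1 and 44.6 in *bcl7a bcl7b*, 2.45, 25 and 10.2 in *bcl7b*, 0, 19.3 and 36.5 in *bcl7a* and 0, 6.54 and 12.4 in WT. It rose by 4.26 log2 units (SE 1.03, adjusted p = 0.00135) in *brm-3 bcl7a bcl7b* against WT. *PHO1;H1* rose by 3.50 log2 units (SE 1.03, adjusted p = 0.00792) in *brm-1 bcl7a bcl7b* against WT, and the difference of *brm-3 bcl7a bcl7b* from *brm-3* was 2.85 (adjusted p = 0.0501). A call did not hold for *PHO1;H1* in *brm-1 bcl7a bcl7b* against WT when WT replicate 1 was left out (adjusted p = 0.0596).

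The secreted enzymes *RNS1*, *PAP10* and *PAP17* (AT3G17790), which release phosphate from organic matter, rose in both triple mutants against WT, and the first 2 of them were highest in *brm-1 bcl7a bcl7b*. *RNS1* (AT2G02990, chr2:873506-874886), a secreted ribonuclease, had 5842, 8331 and 6826 in *brm-1 bcl7a bcl7b*, 1315, 836 and 371 in *brm-1*, 1704, 929.7 and 1368 in *brm-3 bcl7a bcl7b*, with 17.6, 14.9 and 17 in *brm-3*. *RNS1* was at 31.1, 36.2 and 32 in *bcl7a bcl7b*, 1.68, 0 and 15.7 in *bcl7b*, 0, 7.92 and 0 in *bcl7a* and 0, 16.4 and 0 in WT. All *brm-1 bcl7a bcl7b* libraries exceeded those of every other genotype. *RNS1* rose by 3.22 log2 units (SE 0.98, adjusted p = 0.0146) in *brm-1 bcl7a bcl7b* against *brm-1*. It rose by 6.21 log2 units (SE 0.98, adjusted p = 7.45e-05) in *brm-3 bcl7a bcl7b* against *brm-3*. *RNS1* rose by 7.64 log2 units (SE 1.09, adjusted p = 2e-05) in *brm-1 bcl7a bcl7b* against *bcl7a bcl7b*. *PAP10* (AT2G16430), a purple acid phosphatase of the root surface, had 3539.8, 3766 and 3789 in *brm-1 bcl7a bcl7b*, 894, 920.4 and 821 in *brm-1*, 1480.2, 1148 and 1241 in *brm-3 bcl7a bcl7b*, with 489, 383 and 286 in *brm-3*. *PAP10* was at 277, 292 and 285 in *bcl7a bcl7b*, 155, 193 and 176 in *bcl7b*, 72.8, 84.3 and 167 in *bcl7a* and 179, 109.8 and 77.8 in WT. It rose by 2.07 log2 units (SE 0.28, adjusted p = 5.46e-06) in *brm-1 bcl7a bcl7b* against *brm-1*. *PAP10* rose by 1.76 log2 units (SE 0.28, adjusted p = 6.95e-05) in *brm-3 bcl7a bcl7b* against *brm-3*. *PAP17*, another purple acid phosphatase, had 4913, 7066 and 4153 in *brm-1 bcl7a bcl7b*, 16232, 14534 and 8718 in *brm-1*, 9334, 4599.8 and 8954 in *brm-3 bcl7a bcl7b*, with 1483, 1602 and 1859 in *brm-3*. *PAP17* was at 1599, 1408 and 1607 in *bcl7a bcl7b*, 662, 876 and 1032 in *bcl7b*, 528, 981 and 894 in *bcl7a* and 646, 1523 and 759 in WT. It was highest in *brm-1*: it fell by 1.28 log2 units (SE 0.32, adjusted p = 0.0035) in *brm-1 bcl7a bcl7b* against *brm-1*. *PAP17* rose by 2.15 log2 units (SE 0.32, adjusted p = 3.76e-05) in *brm-3 bcl7a bcl7b* against *brm-3*. *PAP12* (AT2G27190), a secreted relative, rose by 1.95 log2 units (SE 0.25, adjusted p = 1.56e-06) in *brm-1 bcl7a bcl7b* against WT and was not called in *brm-3 bcl7a bcl7b*, at 0.52 (adjusted p = 0.0868). The call was also lost for *RNS1* in *brm-1 bcl7a bcl7b* against *brm-1* when any one of *brm-1* replicate 3 or *brm-1 bcl7a bcl7b* replicate 2 was left out (adjusted p 0.0506 to 0.0709).

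The phosphatases *PEPC1* and *PS2* reached at most 33.1 and 29.3 normalized counts outside *brm-1* and the triple mutants. *PEPC1* (AT1G17710, chr1:6090405-6092027), which acts on phosphocholine and phosphoethanolamine and is not the carboxylase of the same abbreviation, had 216, 234 and 105 in *brm-1 bcl7a bcl7b*, 4047, 4076 and 2792 in *brm-1*, 1693, 309 and 1868 in *brm-3 bcl7a bcl7b*, with 5.51, 1.82 and 0.88 in *brm-3*. *PEPC1* was at 1.39, 17.6 and 1.43 in *bcl7a bcl7b*, 3.65, 11.7 and 18.2 in *bcl7b*, 5.44, 31.6 and 1.44 in *bcl7a* and 0, 33.1 and 0 in WT. *PS2* (AT1G73010, chr1:27464528-27466348), a pyrophosphatase, had 569, 513 and 245 in *brm-1 bcl7a bcl7b*, 1726, 1583 and 1032 in *brm-1*, 1039.7, 112 and 959.7 in *brm-3 bcl7a bcl7b*, with 8.93, 3.53 and 1.70 in *brm-3*. *PS2* was at 15.4, 16.2 and 15.9 in *bcl7a bcl7b*, 0, 14.5 and 0 in *bcl7b*, 0, 15.2 and 0 in *bcl7a* and 0, 29.3 and 10.3 in WT. For both genes every *brm-3 bcl7a bcl7b* library was above every *brm-3* library and every *brm-1 bcl7a bcl7b* library above every *bcl7a bcl7b* library, although replicate 2 of *brm-3 bcl7a bcl7b* was far below the other 2. *PEPC1* rose by 8.26 log2 units (SE 1.12, adjusted p = 1.42e-05) in *brm-3 bcl7a bcl7b* against *brm-3*. *PEPC1* rose by 4.71 log2 units (SE 1.26, adjusted p = 0.0078) in *brm-1 bcl7a bcl7b* against *bcl7a bcl7b*, comparisons that use neither *brm-1* nor WT libraries. *PS2* rose by 6.61 log2 units (adjusted p = 0.000341) in *brm-3 bcl7a bcl7b* against *brm-3*. *PS2* rose by 4.62 log2 units (adjusted p = 0.0144) in *brm-1 bcl7a bcl7b* against *bcl7a bcl7b*. The test no longer called *PS2* in *brm-1 bcl7a bcl7b* against *bcl7a bcl7b* when *bcl7a bcl7b* replicate 2 was left out (adjusted p = 0.0747).

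Lipid remodelling genes rose in both triple mutants against WT, but for *NPC5* (AT3G03540), which was at 0 in 22 libraries, *GDPD1*, and *SQD2* in *brm-1 bcl7a bcl7b*. *MGD3* (AT2G11810, chr2:4743162-4746813), a galactolipid synthase, had 156, 85.5 and 52 in *brm-1 bcl7a bcl7b*, 855, 828 and 579 in *brm-1*, 262, 19.5 and 304 in *brm-3 bcl7a bcl7b*, with 2.53, 0.96 and 8.31 in *brm-3*, 1.99, 0 and 2.05 in *bcl7a bcl7b*, 0 in all 3 libraries of *bcl7b*, and 0, 4.99 and 1.53 in *bcl7a* and 0, 4.55 and 9.65 in WT. It rose by 4.88 log2 units (SE 0.99, adjusted p = 0.000997) in *brm-3 bcl7a bcl7b* against *brm-3*, with 19.5 in replicate 2 against 262 and 304 in the other 2 libraries. *MGD2* (AT5G20410), its relative, had 252, 271 and 99.1 in *brm-1 bcl7a bcl7b*, 741, 564 and 647 in *brm-1*, 275, 165 and 306 in *brm-3 bcl7a bcl7b*, with 174, 113 and 98.8 in *brm-3*. *MGD2* was at 66.4, 43.7 and 58.4 in *bcl7a bcl7b*, 17.6, 18.5 and 29 in *bcl7b*, 16.5, 96.2 and 88.4 in *bcl7a* and 63.9, 54.2 and 32.5 in WT. It rose by 2.29 log2 units (SE 0.52, adjusted p = 0.000694) in *brm-3 bcl7a bcl7b* against WT, and the difference from *brm-3* was 0.94 (adjusted p = 0.209). *NPC4* (AT3G03530), a phospholipase C, had 22.3, 62.4 and 11.9 in *brm-1 bcl7a bcl7b*, 219, 187 and 111 in *brm-1*, 67.7, 59.9 and 199 in *brm-3 bcl7a bcl7b*, with 3.63, 7.47 and 16.4 in *brm-3*. *NPC4* was at 17.8, 21.5 and 17.7 in *bcl7a bcl7b*, 13.2, 4.04 and 0 in *bcl7b*, 0, 0 and 15.8 in *bcl7a* and 0, 2.13 and 10.6 in WT. *PLDZ2* (AT3G05630), a phospholipase D, had 91.4, 47.1 and 52.7 in *brm-1 bcl7a bcl7b*, 161, 122 and 116 in *brm-1*, 56.8, 14.2 and 86.8 in *brm-3 bcl7a bcl7b*, with 12, 1.93 and 6.51 in *brm-3*. *PLDZ2* was at 12.8, 18.1 and 13.2 in *bcl7a bcl7b*, 15.8, 15.4 and 23.5 in *bcl7b*, 13.5, 11.9 and 5.45 in *bcl7a* and 0, 4.53 and 9.69 in WT. Against WT, *NPC4* rose by 3.02 (adjusted p = 0.0269) in *brm-1 bcl7a bcl7b* and *SQD2* rose by 0.85 (adjusted p = 0.0102) in *brm-3 bcl7a bcl7b*. Against *brm-3*, *brm-3 bcl7a bcl7b* differed by 3.42 (adjusted p = 0.0265) for *NPC4* and 2.69 (adjusted p = 0.0165) for *PLDZ2*. *SQD1* (AT4G33030), the first enzyme of sulfolipid synthesis, varied little within a genotype, at 4113, 2999.7 and 3528 in *brm-1 bcl7a bcl7b*, 3274, 2809 and 2281 in *brm-1*, 1772, 1377 and 2225 in *brm-3 bcl7a bcl7b*, with 577, 459.9 and 393 in *brm-3*, and 498, 444 and 394 in WT. It rose by 1.90 log2 units (SE 0.19, adjusted p = 3.09e-07) in *brm-3 bcl7a bcl7b* against *brm-3*. *SQD1* rose by 2.63 log2 units (SE 0.21, adjusted p = 9.93e-09) in *brm-1 bcl7a bcl7b* against *bcl7a bcl7b*. *SQD2* (AT5G01220), the second enzyme, rose by 1.11 log2 units (SE 0.27, adjusted p = 0.00422) in *brm-3 bcl7a bcl7b* against *brm-3*. *SQD2* fell by 1.55 log2 units (SE 0.27, adjusted p = 0.000116) in *brm-1 bcl7a bcl7b* against *brm-1*. *GDPD1* (AT3G02040), which degrades glycerophosphodiesters, had 1162, 1196 and 1026 in *brm-1 bcl7a bcl7b*, 2209, 1913 and 1661 in *brm-1*, 1002, 397 and 1608 in *brm-3 bcl7a bcl7b*, with 514, 526 and 492 in *brm-3* and 1058, 1149 and 1874 in WT, and was not called in either triple mutant against WT. Calls did not hold for *NPC4* in *brm-1 bcl7a bcl7b* against WT when any one of WT replicate 1, WT replicate 2, *brm-1 bcl7a bcl7b* replicate 1 or *brm-1 bcl7a bcl7b* replicate 2 was left out (adjusted p 0.0523 to 0.13), *SQD2* in *brm-3 bcl7a bcl7b* against WT when *brm-3 bcl7a bcl7b* replicate 3 was left out (adjusted p = 0.0734), *NPC4* in *brm-3 bcl7a bcl7b* against *brm-3* when any one of *brm-3* replicate 1, *brm-3* replicate 2 or *brm-3 bcl7a bcl7b* replicate 3 was left out (adjusted p 0.0657 to 0.113), and *PLDZ2* in *brm-3 bcl7a bcl7b* against *brm-3* when any one of *brm-3* replicate 2, *brm-3 bcl7a bcl7b* replicate 1 or *brm-3 bcl7a bcl7b* replicate 3 was left out (adjusted p 0.0612 to 0.0965).

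Changes in the genes of the root growth response were smaller. *LPR1* (AT1G23010), a ferroxidase that arrests root growth when phosphate is low, rose by 1.55 log2 units (adjusted p = 0.0105) in *brm-1 bcl7a bcl7b* against WT. *LPR1* rose by 1.18 log2 units (adjusted p = 0.0415) in *brm-3 bcl7a bcl7b* against WT. Its homologue *LPR2* fell by 1.08 log2 units (adjusted p = 0.00182) in *brm-1 bcl7a bcl7b*. *LPR2* fell by 1.11 log2 units (adjusted p = 0.00113) in *brm-3 bcl7a bcl7b*, both against WT. The falls of *LPR2* were lost after rescaling, at -0.16 (adjusted p = 0.645) in *brm-1 bcl7a bcl7b* and -0.10 (adjusted p = 0.782) in *brm-3 bcl7a bcl7b*. *PDR2* (AT5G23630), which acts with *LPR1*, rose in *brm-1 bcl7a bcl7b* against WT, by 0.85 (adjusted p = 0.0209). *ALMT1* (AT1G08430), a malate exporter, had 199, 218 and 215 in *brm-1*, above all libraries of the other genotypes, and was called against WT in neither triple mutant. The calls were lost for *LPR1* in *brm-1 bcl7a bcl7b* against WT when *brm-1 bcl7a bcl7b* replicate 1 was left out (adjusted p = 0.0503), *LPR1* in *brm-3 bcl7a bcl7b* against WT when any one of WT replicate 1, WT replicate 2, *brm-3 bcl7a bcl7b* replicate 1, *brm-3 bcl7a bcl7b* replicate 2 or *brm-3 bcl7a bcl7b* replicate 3 was left out (adjusted p 0.0598 to 0.131), and *PDR2* in *brm-1 bcl7a bcl7b* against WT when any one of WT replicate 1 or *brm-1 bcl7a bcl7b* replicate 1 was left out (adjusted p 0.0885 to 0.187).

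The loss of *BCL7A* and *BCL7B* moved many members in opposite directions in the 2 *brm* backgrounds, a comparison that stays within the 15 libraries of lower sum. In *brm-3 bcl7a bcl7b*, 19 of 36 members rose and 1 fell against *brm-3*, where 9.08% and 12.1% of all genes were called. The median of the members was 1.44 and that of all genes -0.01. In *brm-1 bcl7a bcl7b*, 4 of the 34 members without *MIR399D* and *PEPC1* rose and 10 fell against *brm-1*, beside 14.2% and 15.3% of all genes, with medians of -0.94 for the members and -0.01 for all genes. In a model of these 2 genotypes alone, 5 rose and 18 fell, but the shares of all genes above belong to the main fit and not to that model. Of the 17 of these 34 that rose in *brm-3 bcl7a bcl7b*, 8 fell in *brm-1 bcl7a bcl7b*, 2, *RNS1* and *PAP10*, rose there too, and 7 were not called there. The share of all genes with the same pairs of calls was not counted, so these joint counts have no background beside them. The single member that fell in *brm-3 bcl7a bcl7b*, *PHO2*, rose in *brm-1 bcl7a bcl7b*. A test of the difference between the 2 effects called 17 of the 34 more positive and 1 more negative in the *brm-3* background, with 13.1% and 14.8% of all genes.

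**Figure D3:**
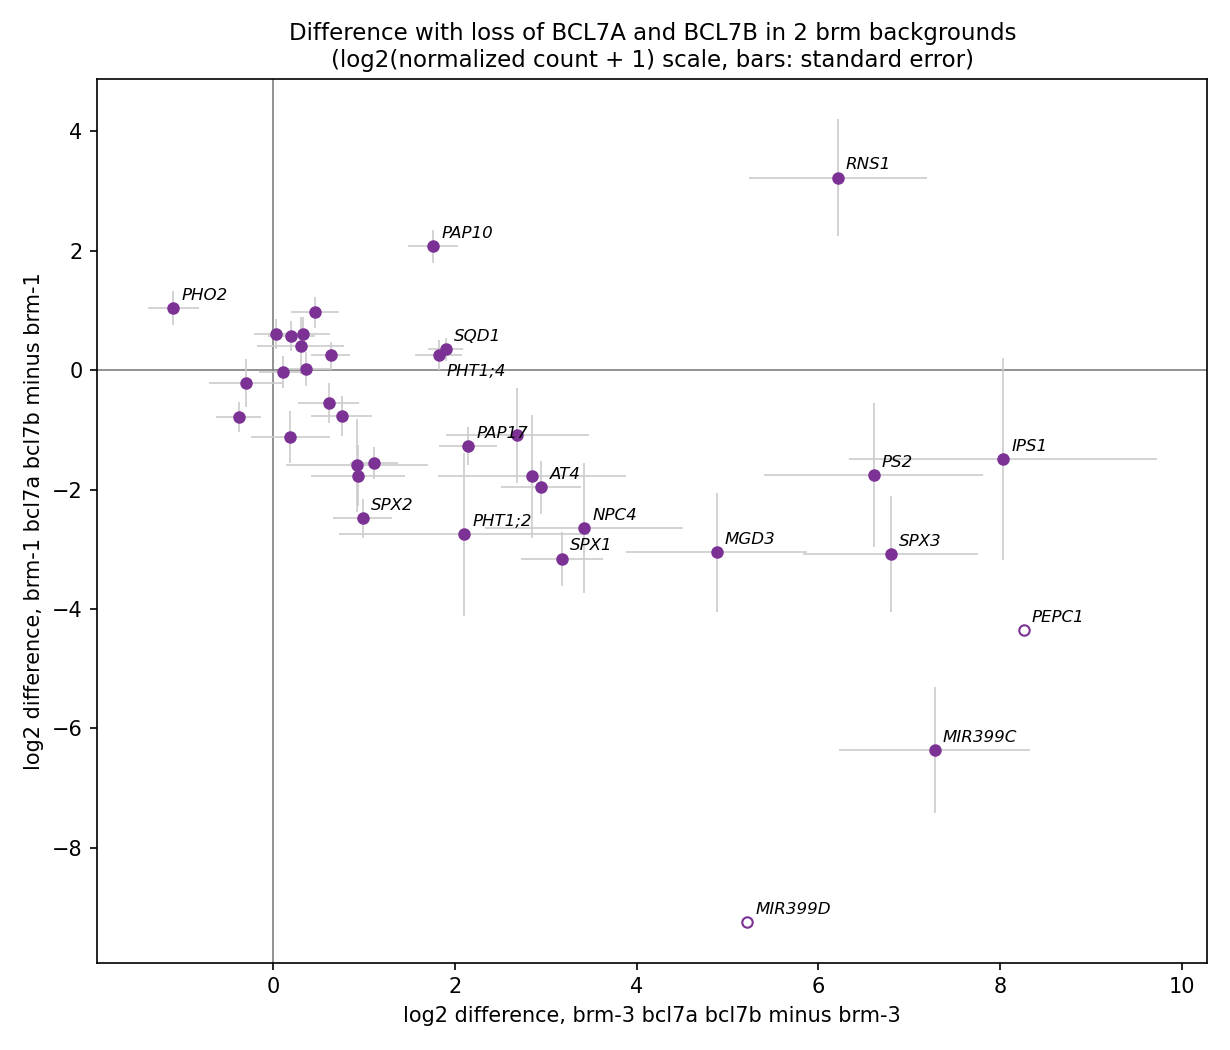
Log2 difference of *brm-3 bcl7a bcl7b* from *brm-3* (horizontal) against that of *brm-1 bcl7a bcl7b* from *brm-1* (vertical) for the 36 members tested, with standard errors as bars except for *MIR399D* and *PEPC1* (open circles), on the log2(normalized count + 1) scale. Most labelled members lie to the right of 0 and below it, *RNS1* and *PAP10* lie to the right and above, and *PHO2* lies to the left and above; *MIR399C* and *MIR399D* are at 0 in *brm-3*, so their horizontal positions depend on the added 1.

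The comparison of the triple mutants with *bcl7a bcl7b* asked what the *brm* alleles change when the BCL7 proteins are already lost. In *brm-1 bcl7a bcl7b*, 15 members rose and 1 fell (12.8% and 10.9% of all genes), and in *brm-3 bcl7a bcl7b*, 17 rose and 3 fell (13.8% and 15.1%). The members that fell were *PHO1* in *brm-1 bcl7a bcl7b* and *PHO2*, *PHT1;1* and *PHO1* in *brm-3 bcl7a bcl7b*. In *brm-3* against *bcl7a bcl7b*, 0 rose and 2, *PHT1;1* and *PHO1*, fell (6.25% and 5.05%). The median of the members was 1.30, 1.49 and -0.16 in these 3 comparisons, against 0.01, 0.05 and 0.00 for all genes. The difference between the effect of *bcl7a bcl7b* in *brm-3* and in WT was called for 9 of the 34 members as positive and 1 as negative, with 5.2% and 6.29% of all genes, although this term crosses the 2 sets of libraries and a model of its 4 genotypes alone called 5 and 0. Between the triple mutants, 6 members were higher in *brm-1 bcl7a bcl7b* and 6 in *brm-3 bcl7a bcl7b* (16.3% and 13.5% of all genes). The higher ones in *brm-1 bcl7a bcl7b* were *PHO2*, *PHT1;1*, *PHT1;4*, *PAP10*, *PAP12* and *SQD1*, and the lower ones were *MIR399C*, *MIR399D*, *SPX1*, *SPX2*, *WRKY75* and *NLA*. For *brm-1*, 23 of the 34 members were higher and 0 lower than in *brm-3* (5.34% and 4.6% of all genes), and 20 higher and 3 lower than in *bcl7a bcl7b* (11.6% and 9.84%). Without *bcl7a bcl7b* replicate 2 or without *brm-1* replicate 2, 0 were lower in that last comparison. Of the calls on named members here, those were lost for *PHO2* in *brm-3 bcl7a bcl7b* against *bcl7a bcl7b* when *bcl7a bcl7b* replicate 2 was left out (adjusted p = 0.0814), *PHO1* in *brm-3* against *bcl7a bcl7b* when *brm-3* replicate 1 was left out (adjusted p = 0.0568), *MIR399D* in *brm-1 bcl7a bcl7b* against *brm-3 bcl7a bcl7b* when any one of *brm-3 bcl7a bcl7b* replicate 1, *brm-3 bcl7a bcl7b* replicate 3, *brm-1 bcl7a bcl7b* replicate 1, *brm-1 bcl7a bcl7b* replicate 2 or *brm-1 bcl7a bcl7b* replicate 3 was left out (adjusted p 0.0542 to 0.259), *WRKY75* in *brm-1 bcl7a bcl7b* against *brm-3 bcl7a bcl7b* when any one of *brm-3 bcl7a bcl7b* replicate 1, *brm-3 bcl7a bcl7b* replicate 2, *brm-3 bcl7a bcl7b* replicate 3, *brm-1 bcl7a bcl7b* replicate 1, *brm-1 bcl7a bcl7b* replicate 2 or *brm-1 bcl7a bcl7b* replicate 3 was left out (adjusted p 0.0573 to 0.125), and *NLA* in *brm-1 bcl7a bcl7b* against *brm-3 bcl7a bcl7b* when any one of *brm-3 bcl7a bcl7b* replicate 1 or *brm-1 bcl7a bcl7b* replicate 3 was left out (adjusted p 0.0619 to 0.0834).

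**Figure D4:**
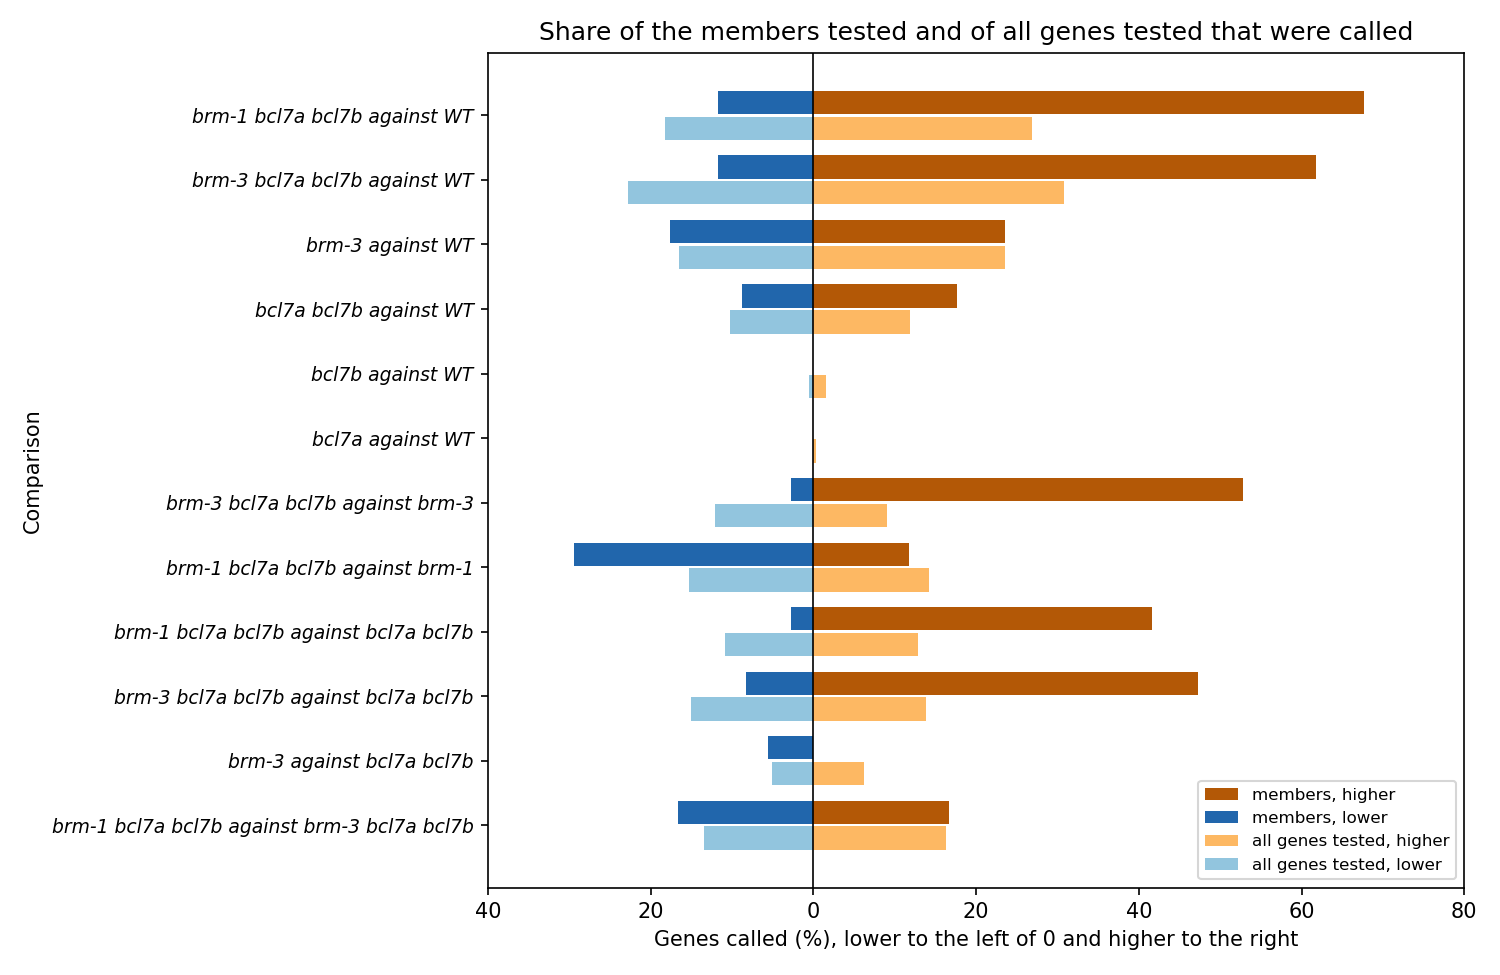
Share of the members tested (dark bars; 36, or 34 without *MIR399D* and *PEPC1* in comparisons with WT or *brm-1* libraries) and of all 21596 genes tested (pale bars) that were called higher (right of 0) or lower (left of 0), in percent, for 12 comparisons. The dark bars to the right are longest for the 2 triple mutants against WT and for *brm-3 bcl7a bcl7b* against *brm-3*, and the longest dark bar to the left belongs to *brm-1 bcl7a bcl7b* against *brm-1*.

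Many members shared the library in which they were lowest within *brm-3 bcl7a bcl7b*, and likewise within *brm-1*. Replicate 2 of *brm-3 bcl7a bcl7b* was the lowest of its 3 libraries for 25 of 36 members, while it was lowest for 33.5% of all genes tested, and replicate 3 was the highest for 24 members and 32.2% of all genes. The summed root hair markers ran in the same order, with 373 in replicate 2, 529 in replicate 1 and 1000.5 in replicate 3, and their part in the members' values was not tested. Without replicate 2, 20 members were called in *brm-3 bcl7a bcl7b* against *brm-3*, as with it. Replicate 3 of *brm-1* was the lowest for 25 of 36 members and 41% of all genes, and its root hair markers summed to 788, beside 717 and 697 in the other 2. In the other 6 genotypes the library most often lowest was so for 19 of 36 members at most. Among the *brm* genotypes the root hair sum was 467 to 1008 in *brm-1 bcl7a bcl7b*, 697 to 788 in *brm-1* and 276 to 756 in *brm-3*, ranges that overlap. In WT it was 1029 to 1423, above every library of these genotypes and of *brm-3 bcl7a bcl7b*. The library sums were higher in WT too, and the part of either was not tested. None of the 6 root hair markers was called in *brm-3 bcl7a bcl7b* against *brm-3* or in *brm-1* against *brm-3*. In *brm-1 bcl7a bcl7b* against *brm-1*, *RSL4*, a regulator of root hair growth, fell by 2.43 log2 units (SE 0.88, adjusted p = 0.0394). The other 5 root hair markers were not called there, with log2 differences from -1.10 (*EXPA7*) to 1.02 (*COBL9*), while 1 of 5 endodermis and 2 of 6 green leaf markers were lower. Against WT, *RSL4* was called higher and *EXPA7* and *PRP3* lower in *brm-3 bcl7a bcl7b*, and only *EXPA7* was called, lower, in *brm-1 bcl7a bcl7b*. In *brm-3 bcl7a bcl7b* against *brm-3*, the endodermis gene *CASP1* fell by 1.43 log2 units (SE 0.30, adjusted p = 0.00138), *CASP5*, its relative, rose by 1.58 log2 units (SE 0.56, adjusted p = 0.0442), and 4 of 6 green leaf markers were lower. The 5 endodermis markers summed to 164 to 282 in *brm-1 bcl7a bcl7b*, 283 to 327 in *brm-3 bcl7a bcl7b* and 982 to 1270.3 in WT. Against WT, 4 of these 5 were called lower in each triple mutant, 3 in *brm-3*, 2 in *brm-1* and 1 in *bcl7a bcl7b*, and 0 were called higher. The shares of all genes called lower were 18.3% in *brm-1 bcl7a bcl7b*, 22.8% in *brm-3 bcl7a bcl7b*, 16.5% in *brm-3*, 19.2% in *brm-1* and 10.2% in *bcl7a bcl7b*. These comparisons cross the 2 sets of libraries. The 6 green leaf markers took 1.17% to 1.84% of the values in *brm-1 bcl7a bcl7b*, 0.88% to 0.91% in *brm-3 bcl7a bcl7b*, 0.99% to 1.86% in *brm-3* and 1.21% to 1.49% in WT.

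Beyond the members, a list of 37 other phosphate genes, all with a row and 33 of them tested, was counted in the same way, and those named were chosen after their values were seen. Against WT, 10 of the 33 rose and 7 fell in *brm-1 bcl7a bcl7b*, beside 26.9% and 18.3% of all genes. In *brm-3 bcl7a bcl7b*, 12 rose and 8 fell, beside 30.8% and 22.8%. In *bcl7a bcl7b*, 4 rose and 4 fell, beside 11.9% and 10.2%. In these 3 genotypes the list was thus called about as often as any gene. In *brm-3*, 4 rose and 6 fell, beside 23.5% and 16.5%. In *bcl7b*, 1, *ZAT6*, rose and 0 fell, beside 1.5% and 0.57%, and in *bcl7a* 0 rose and 0 fell, beside 0.301% and 0.0509%. In *brm-3 bcl7a bcl7b* against *brm-3*, 4 rose (*ZAT6*, *G3PP1*, *UGP3* and *GDPD5*) and 1 fell (*PHL2*), beside 9.08% and 12.1% of all genes. In *brm-1 bcl7a bcl7b* against *brm-1*, 5 rose and 9 fell, beside 14.2% and 15.3%. In *brm-1* the list was called higher more often than all genes were. There 17 of the 33 were higher and 6 lower than in WT, beside 28.9% and 19.2%. Against *brm-3*, 8 were higher and 0 lower in *brm-1*, beside 5.34% and 4.6%. Against *bcl7a bcl7b*, 9 were higher and 3 lower in *brm-1*, beside 11.6% and 9.84%. *G3PP1*, a transporter of glycerol 3-phosphate known for its induction by low phosphate, had 1444, 1655 and 1071 in *brm-1 bcl7a bcl7b*, 1993, 1629 and 1812 in *brm-1*, 1135, 513 and 1311 in *brm-3 bcl7a bcl7b*, with 156, 188 and 135 in *brm-3*, against 149.8, 325 and 147 in *bcl7a bcl7b* and 145, 205 and 289 in WT. It rose by 2.52 log2 units (SE 0.34, adjusted p = 1.21e-05) in *brm-3 bcl7a bcl7b* against *brm-3*, and no *brm-3 bcl7a bcl7b* library overlapped *brm-3*. *GDPD5*, a glycerophosphodiester phosphodiesterase, rose by 2.40 log2 units (adjusted p = 8.95e-07) in the same comparison, with 597, 504 and 655 in *brm-3 bcl7a bcl7b*, against 107, 104 and 116 in *brm-3*. *UGP3*, which supplies UDP-glucose for sulfolipids, rose by 0.91 log2 units (adjusted p = 0.0283) there. *UGP3* fell by 1.64 log2 units (adjusted p = 0.000156) in *brm-1 bcl7a bcl7b* against *brm-1*. *PHL2*, a relative of *PHR1*, fell by 1.25 log2 units (adjusted p = 2.45e-05) in *brm-3 bcl7a bcl7b* against *brm-3*.

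The binding motif of PHR1, GNATATNC with N for any base, was looked for from 250 bases before to 50 bases after the annotated start of each gene. It reads the same on both strands. It was present in 17 of the 40 members with a row (42.5%) and in 2018 of 32953 genes of the table with a window (6.12%). In the 150 bases before the start alone the shares were 17.5% and 2.98%. Of the 19 members that rose in *brm-3 bcl7a bcl7b* against *brm-3*, 11 had a match, and of the other 17 tested, 4 had one. Matches in members that the results turn on are printed with the motif in capitals, from TAIR10.1.
MIR399C, chr5:24962282-24962309, plus strand: aaatggatatGGATATCCatgggaataa
MIR399D, chr2:14443229-14443256, minus strand: atgtgccagaGAATATGCtttctatacg
AT4, chr5:894546-894573, plus strand: ttggtaattgGCATATTCcttttagaag
SPX1, chr5:6802294-6802321, plus strand: agagaaaaaaGGATATTCtaattagaaa
SPX3, chr2:18606187-18606214, plus strand: attagagaccGAATATGCcagaggattt
SPX3, chr2:18606310-18606337, plus strand: ctaaagctaaGCATATCCgctttcatat
PS2, chr1:27466548-27466575, minus strand: ttgggtaacgGAATATTCttctcttatt
*IPS1*, *PHO2*, *SPX2*, *SPX4*, *PEPC1*, *MGD3*, *PAP10* and *PAP17* held no match in this window, which says only that these letters are absent there.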

How the data were processed

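RNA was sequenced from 3 libraries of each of 8 genotypes. Per the labels and the methods of the study, the authors quantified transcripts with Salmon 1.5.1 on the AtRTD2 transcriptome of Arabidopsis thaliana (TAIR10) and normalized gene values with DESeq2, listed in their processing notes as version 3.10. The deposited signal is one table of normalized counts per gene, read estimates divided by a size factor; the methods name TPM as input, whereas low values lie near whole multiples of a step that did not depend on gene length. Size-factor scaling equalizes the middle of the distribution, so library sums still differ.

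Values were transformed as log2(normalized count + 1), filtered at 10 or more in at least 3 libraries, and fitted with limma 3.58.1 (trend, R 4.3.3) over 8 genotypes and 23 samples, because *bcl7a bcl7b* replicates 1 and 3 were averaged. P-values were adjusted by the Benjamini-Hochberg method over the 21596 genes tested, and a call needed an adjusted p under 0.05 and a log2 fold change beyond 0.6. Replicates are biological per the study, but the p-values measure only the spread between these samples. The fit was tested on simulated data.

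The members, gene lists and tests were chosen with earlier results of these data known, and counts with WT or *brm-1* libraries leave out *MIR399D* and *PEPC1*. Genes given by library were *MIR399C*, *MIR399D*, *IPS1*, *AT4*, *PHO2*, the *SPX* genes, *PHR1* and *PHL1*, and the 12 other members with the largest fold change in any mutant against WT. Comparisons of the triple mutants with *bcl7a bcl7b*, of *brm-3* with *bcl7a bcl7b*, between the triple mutants, and the differences of effects involving *brm-3* were added after the data were seen. Alternatives were a pseudocount of 5, no filter, equal library totals, all 24 libraries, a model of the compared genotypes alone, a replicate block and each library left out. Sequences and positions came from RefSeq on TAIR10.1.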

Additional observations from a re-analysis of the deposited data

Results flagged for a closer look

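The effect of losing *BCL7A* and *BCL7B* differed between genetic backgrounds for a set of members, by a test of the difference itself (an interaction term in limma, with Benjamini-Hochberg adjustment over all 21596 genes). These tests were added after the data were seen. *MIR399D* and *PEPC1* are left out, as are log2 differences where a whole genotype was listed at 0.

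In the *brm-3* background against the *brm-1* background, the effect differed for *MIR399C* (adjusted p = 1.05e-06), *IPS1* (adjusted p = 0.00441, log2 difference 9.52), *AT4* (adjusted p = 6.08e-06, log2 difference 4.92), *SPX1* (adjusted p = 4.39e-07, log2 difference 6.34), *SPX2* (adjusted p = 9.53e-06, log2 difference 3.47), *SPX3* (adjusted p = 1.53e-05, log2 difference 9.87), *PHO2* (adjusted p = 0.000328, log2 difference -2.14), *PHT1;4* (adjusted p = 0.00225, log2 difference 1.57), *PHO1;H1* (adjusted p = 0.0202, log2 difference 4.63), *PAP17* (adjusted p = 8.68e-06, log2 difference 3.43), *SQD1* (adjusted p = 0.000177, log2 difference 1.55), *SQD2* (adjusted p = 2.1e-05, log2 difference 2.66), *MGD2* (adjusted p = 0.0074, log2 difference 2.71), *MGD3* (adjusted p = 0.000202, log2 difference 7.93), *NPC4* (adjusted p = 0.00483, log2 difference 6.06), *PLDZ2* (adjusted p = 0.0134, log2 difference 3.78), *PS2* (adjusted p = 0.00076, log2 difference 8.37) and *GDPD1* (adjusted p = 0.0182, log2 difference 1.52). The difference no longer passed for *PHO1;H1* without *brm-3 bcl7a bcl7b* replicate 1 (adjusted p = 0.0514) and *GDPD1* without *brm-3 bcl7a bcl7b* replicate 3 (adjusted p = 0.0668). These 4 genotypes share no library with WT. They include the *brm-1* libraries, which bore on the choice of members, so these tests are not independent of that choice.

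In the *brm-3* background against WT, the effect differed for *MIR399C* (adjusted p = 0.013), *IPS1* (adjusted p = 0.00624, log2 difference 10.94), *AT4* (adjusted p = 0.000225, log2 difference 4.16), *SPX1* (adjusted p = 0.00377, log2 difference 3.13), *SPX3* (adjusted p = 0.0197), *PHO2* (adjusted p = 0.0156, log2 difference -1.59), *PHT1;4* (adjusted p = 1.99e-06, log2 difference 3.62), *SQD1* (adjusted p = 0.00106, log2 difference 1.54), *MGD3* (adjusted p = 0.00962, log2 difference 6.05) and *GDPD1* (adjusted p = 0.012, log2 difference 1.96). The difference no longer passed for *PHO2* without *bcl7a bcl7b* replicate 2 (adjusted p = 0.0935), *MGD3* without *bcl7a bcl7b* replicate 2 (adjusted p = 0.0539) and *SPX3* without *brm-3* replicate 3 or without *brm-3 bcl7a bcl7b* replicate 3 (adjusted p 0.0516 to 0.0582). This term crosses the libraries of higher and lower sums, which cannot be told apart from the genotypes.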

How the results depend on the processing

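Every count of members called was recomputed with a pseudocount of 5, no filter on low values, equal library totals, all 24 libraries as deposited, a model of the compared genotypes alone, the replicate block and each library left out. Of these counts 224 stayed within 1.5 times the main count and 10 did not. In *bcl7a bcl7b* against WT, 20 members were called with equal library totals and 1 in a model of the compared genotypes alone, against 9 in the main fit. Leaving out a library gave 4 to 11, with 4 without *bcl7a bcl7b* replicate 2. In *bcl7b* against WT, leaving out a library gave 0 to 2, with 2 without WT replicate 3. In *brm-3* against *bcl7a bcl7b*, where the main fit called 2, all 24 libraries gave 6, the compared genotypes alone 0, and leaving out a library 2 to 5, with 5 without *bcl7a bcl7b* replicate 2. A model of the compared genotypes alone, which has fewer samples to estimate the spread, called 23 members in *brm-1 bcl7a bcl7b* against *brm-1*, against 14, and 5 for the difference of the effect between *brm-3* and WT, against 10. With equal library totals, which raise all genes against WT, 2 single values turned sign, *PHO1* in *brm-3* against WT to 0.024 and *PHO2* in *brm-3 bcl7a bcl7b* against WT to 0.24. Of the other values of single members, 6676 kept their side of the threshold, 163 passed it only under the alternative, 221 passed it only in the main fit and 1 moved. The share of members with the PHR1 motif was 17.5% in the shorter window, by its construction. The causes of the other shifts were not tested.

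Replicate numbers did not pair the samples. Deviations of same-numbered samples from their genotype means correlated at -0.0694 to 0.0897 over 15 comparisons, and none had every pair above 0.1. A fit with the replicate block called 6 members in *brm-3* against *bcl7a bcl7b* and moved no other count by over 1.5 times, with 21 in *brm-3 bcl7a bcl7b* against *brm-3* and 16 in *brm-1 bcl7a bcl7b* against *brm-1*. Depth limits the *MIR399* loci, *SPX3*, *PHT1;2* and *RNS1* in the genotypes where they were at or near 0.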
